A study of Capra hircus with 4 samples.

Results

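WNT ligands are secreted lipid-modified proteins, and the expression of their genes, with those of their receptors and modulators, was described among nuclei of the goat (Capra hircus) ovary. A gene was taken as a member when its symbol starts with WNT, FZD, RSPO, SFRP or DKK followed by a digit, or when it is LRP5, LRP6, LGR4, LGR5, ROR1, ROR2, RYK, WIF1, FRZB, APCDD1, KREMEN1, ZNRF3, RNF43, AXIN2 or NOTUM. The rule found 55 genes of the 28944 features in the count matrices, and it used no measured value. They comprised 19 WNT ligands, 10 Frizzled receptors, 2 LRP co-receptors, 3 ROR and RYK receptors, 4 R-spondins, 4 R-spondin receptors and ligases, 10 secreted inhibitors with KREMEN1, and 3 feedback inhibitors.

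Single-nucleus RNA sequencing was performed on ovaries of 2 Nubian goats, taken from animals selected as polytocous (litters of 3), and 2 Du'an goats, taken from animals selected as monotocous (litters of 1). All 4 goats were about 3 years old and carried an intravaginal progesterone device (CIDR, 300 mg) for 17 days to synchronise estrus. The methods of the study name no other hormone. Each goat gave 1 library, so a breed is represented by 2 animals. In the following, 4 values in a row are given in the order Du'an replicate 1, Du'an replicate 2, Nubian replicate 1 and Nubian replicate 2.

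A WNT ligand binds a Frizzled receptor, and in the canonical branch LRP5 or LRP6 joins the complex so that beta-catenin accumulates and acts with TCF and LEF factors in the nucleus. ROR1, ROR2 and RYK are receptors of other branches, which act on cell polarity, movement and calcium. R-spondins bind LGR receptors and keep the ubiquitin ligases ZNRF3 and RNF43 from removing Frizzled receptors from the membrane, whereas DKK, SFRP, FRZB and WIF1 proteins block signaling outside the cell. In the ovary, WNT4 and RSPO1 are known for their roles in female sex determination and in granulosa cells (GCs).

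The 4 libraries held between 9364 and 16988 nuclei and between 40573246 and 71613892 UMIs, and 44734 of 48332 nuclei were kept. They were sorted into 13 classes named from fixed marker genes, and the 2083 nuclei of 1 cluster (median 795 UMIs) stayed unnamed although 5 of 8 epithelial markers were up in it (91, 413, 732 and 847 nuclei by goat). Each class is called "like" its cell type, and 576 fibroblast-like nuclei came almost wholly from Nubian replicate 1 (550), so that class had no test of its own. Ciliated-like nuclei reached the minimum of 20 nuclei in Du'an replicate 2 and Nubian replicate 2 alone. Smooth muscle-like nuclei were shallow, with a median of 1020 UMIs against 4039 in granulosa-like nuclei, and 6 of 7 stromal markers and 7 of 9 fibroblast markers were also above the mean of the other classes in them. Granulosa-like nuclei also differed in makeup between goats, since 5219 of 5293 nuclei of 1 mural cluster were from Nubian replicate 1. Between 54 and 131 cell barcodes were shared by each pair of libraries, and the doublet caller marked 0.312% of all nuclei, which is too few to have worked.

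Levels are given in CPM, the UMIs of a gene scaled to all UMIs summed over the nuclei of a class in a goat, and are compared between classes for 1 gene, not between genes. Each class was compared with the mean of the other classes by edgeR's quasi-likelihood test, and a gene was called at a Benjamini-Hochberg adjusted p under 0.05 over all 15874 genes tested. The fold change is a difference of mean log2 levels, so a class can be called higher while its CPM lies under the arithmetic mean of the others. The same nuclei defined the classes, but no member or other pathway gene was among the genes used for clustering.

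Of the 55 members, 41 passed the filter on low counts and were tested in 12 classes, and 25 had at least 1000 UMIs over all nuclei. The filter asked for enough counts in only 1 sum of a goat and class. A rare member could thus pass through a class where it was high. WNT9B was tested with 37 UMIs over all nuclei, and WNT3A with 187 was not. The 14 members left out of the test were DKK1, FZD9, FZD10, NOTUM, RSPO1, WNT1, WNT3, WNT3A, WNT7A, WNT8A, WNT8B, WNT10A, WNT10B and WNT16. WNT8A had 0 UMIs in any nucleus, WNT1 had 1 and WNT3 had 2, and the most frequent of the 14 was WNT3A with 187 UMIs in 174 nuclei. The highest class mean among them was 2.62 CPM, for WNT10B in progenitor granulosa-like nuclei. RSPO1 (104 UMIs) and DKK1 (4 UMIs) were likewise left out of the test, so no statement is made on where they were expressed.

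In all, 40 of the 41 tested members were called higher in at least 1 class (90.8% of all genes tested) and 22 were called lower in at least 1 (54.2% of all genes). Over the 492 tests of a member in a class, 107 were called higher (18.2% of all tests) and 68 lower (10.7% of all tests). FZD7 alone was called in no class, and 8 members were called higher in exactly 1. A rare member could enter the test through the class where it was high, so its higher call there is no separate support. The same filter applied to all genes. By role, all 10 tested ligands were called higher somewhere and 4 lower, as were 7 and 5 of 8 Frizzled receptors, both LRP co-receptors in both directions, and all 3 ROR and RYK receptors in both directions. The 3 tested R-spondins were higher somewhere and 1 was lower, the 4 R-spondin receptors and ligases gave 4 and 2, the 9 tested secreted inhibitors with KREMEN1 gave 9 and 3, and the 2 tested feedback inhibitors gave 2 and 2.

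**Figure D1:**
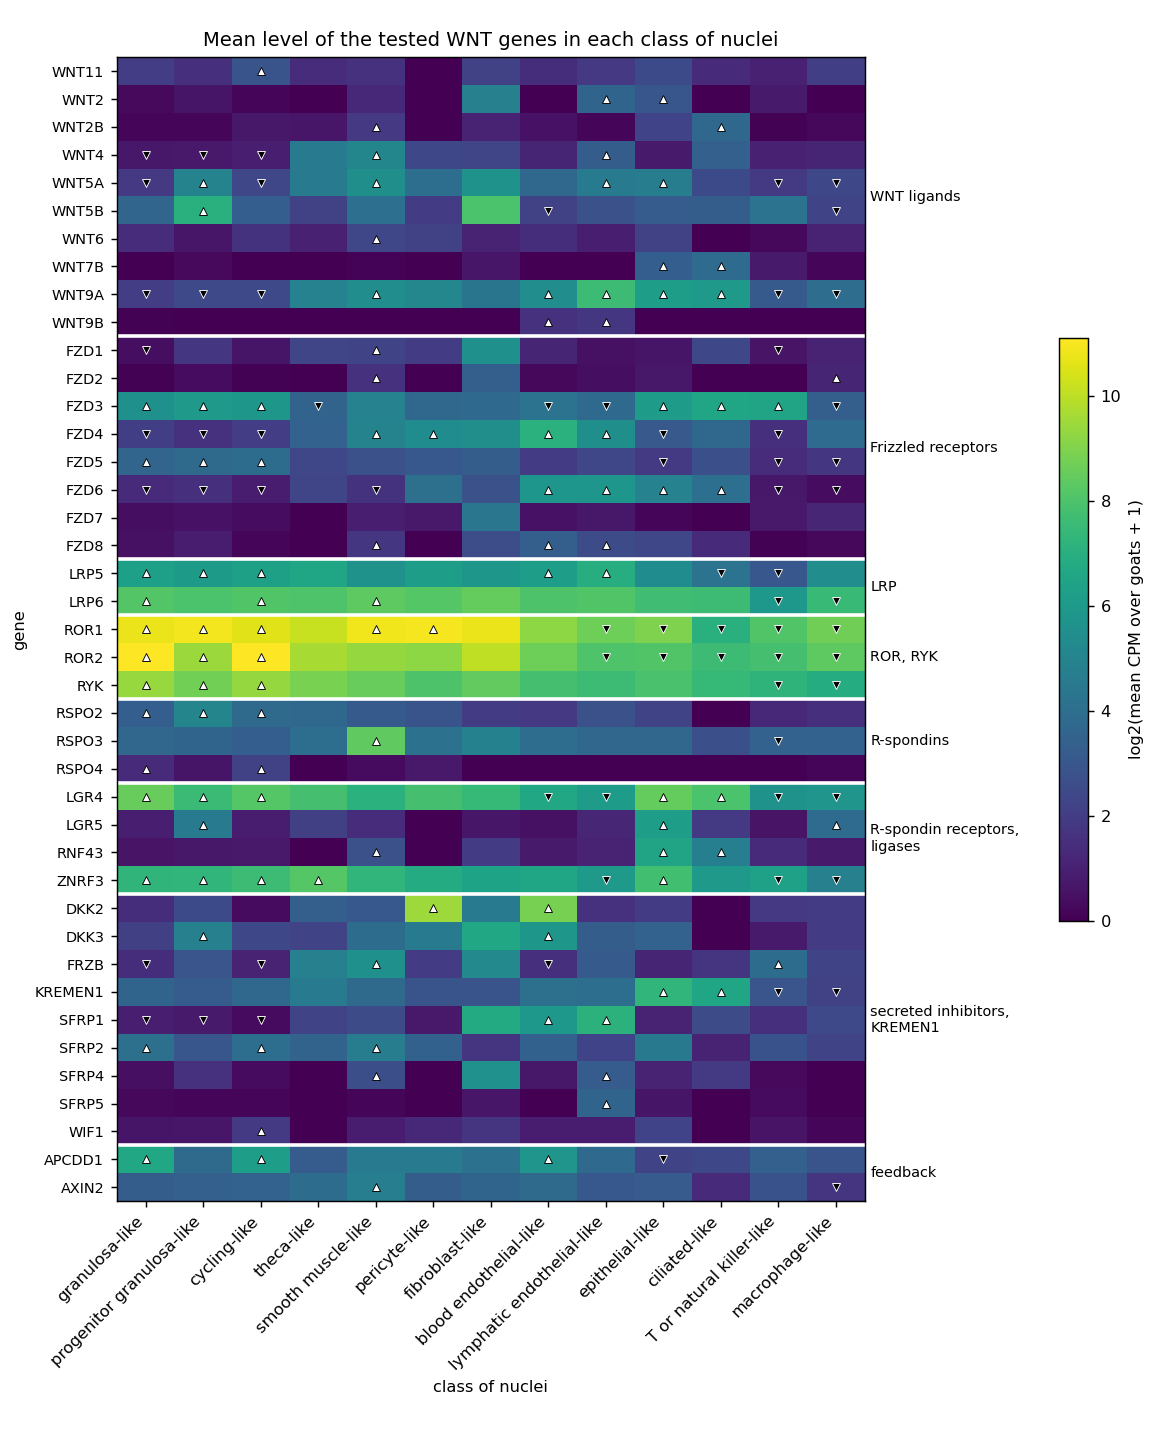
Heat map of the 41 tested members (rows, by role) in 13 classes of nuclei (columns), coloured by log2(mean CPM over goats + 1). White triangles mark classes called higher and black triangles classes called lower than the mean of the others; the fibroblast-like column is 1 goat and was not tested. DKK2 stood out in pericyte-like and blood endothelial-like nuclei, and RSPO3 in smooth muscle-like nuclei.

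The classes differed in how many members they called. Smooth muscle-like nuclei had the most members higher, 17 of 41 (16.7% of all genes), and 1 lower (3.85%). Cycling nuclei had 15 higher (21.8%) and 7 lower (15.0%), granulosa-like nuclei 13 (23.9%) and 8 (12.7%), and progenitor granulosa-like nuclei 13 (19.2%) and 5 (9.61%). Lymphatic endothelial-like nuclei had 12 higher (16.0%) and 5 lower (7.73%), epithelial-like nuclei 11 (15.6%) and 5 (7.64%), blood endothelial-like nuclei 10 (17.9%) and 4 (8.12%), and ciliated-like nuclei 8 (15.9%) and 3 (8.16%). Pericyte-like nuclei had 3 higher (7.11%) and 0 lower (3.68%), and theca-like nuclei 1 higher (8.09%) and 1 lower (8.64%). The immune classes ran the other way, with 2 members higher (28.1%) and 15 lower (22.4%) in T or natural killer-like nuclei and 2 higher (28.6%) and 14 lower (21.0%) in macrophage-like nuclei. The members higher there were FZD3 and FRZB in the former and FZD2 and LGR5 in the latter. The median log2 fold change of the members was -1.23 in T or natural killer-like nuclei (all genes -0.02) and -1.09 in macrophage-like nuclei (all genes -0.01). It was 0.70 in smooth muscle-like nuclei, where that of all genes was 0.10 (by DESeq2 0.36, all genes -0.10). The median depended on the tool in other classes too. In granulosa-like nuclei it was -0.15 by edgeR (all genes 0.12) and -1.43 by DESeq2 (all genes -0.27). In cycling nuclei it was -0.33 by edgeR (all genes 0.00) and -0.98 by DESeq2 (all genes -0.33). In progenitor granulosa-like nuclei it was 0.38 (all genes 0.09) by edgeR but -0.20 by DESeq2, where the median of all genes was -0.28.

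**Figure D2:**
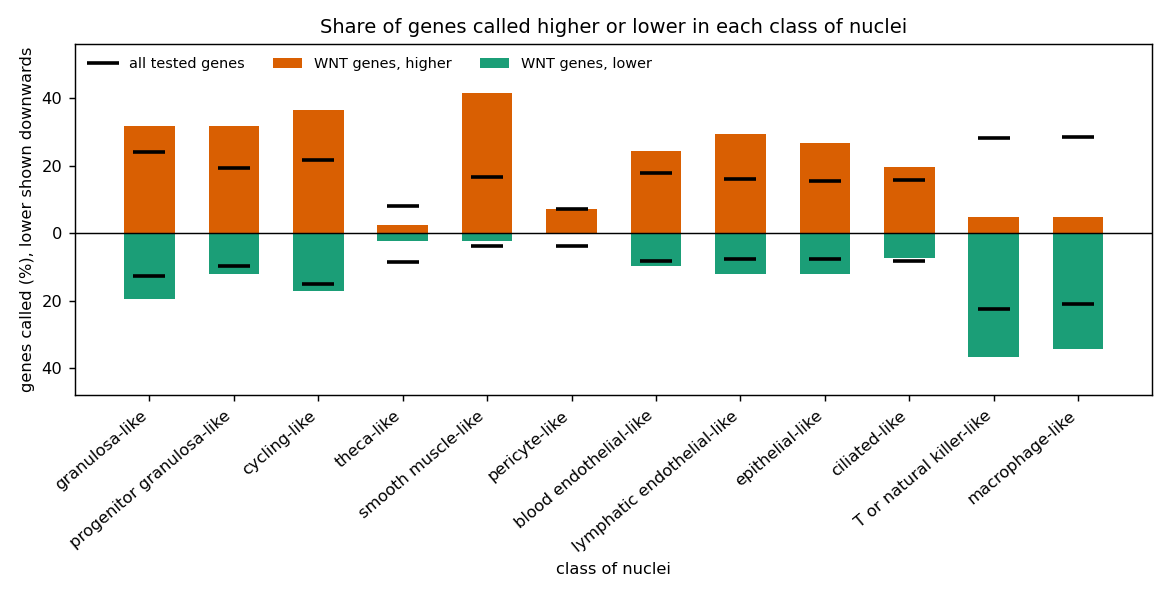
Share of the 41 members called higher (bars upwards) or lower (bars downwards) in each of 12 classes of nuclei, in percent, with black dashes for the share of all 15874 tested genes. The 17 members higher in smooth muscle-like nuclei stand above the dash at 16.7%, and the members higher in T or natural killer-like and macrophage-like nuclei (2 each) stand under theirs.

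The ligand WNT9A was highest in lymphatic endothelial-like nuclei, which line the vessels that drain tissue fluid. Its level there was 273, 168, 196 and 139 CPM (194 ± 57.7, SD, n = 4), against 74.6 CPM in the next class, epithelial-like nuclei, so that the 4 goats were all above every other class mean. The log2 fold change was 3.46 ± 0.15 (SE; edgeR, Benjamini-Hochberg adjusted p = 3.7e-23). WNT9A was also called higher in smooth muscle-like (log2 fold change 1.03), blood endothelial-like (1.01), epithelial-like (1.70) and ciliated-like nuclei (2.33). It was called lower in granulosa-like (5.19, 1.98, 2.6 and 2.37 CPM, log2 fold change -2.95), cycling (-2.48) and progenitor granulosa-like nuclei (-2.29), and in both immune classes. After each nucleus was thinned to 1000 UMIs, 19.2 ± 2.7% of lymphatic endothelial-like nuclei held a WNT9A UMI (33.1% without thinning, median 1987 UMIs), against 0.378% of granulosa-like nuclei (1.23% without thinning, median 4039 UMIs).

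WNT5B and WNT5A, ligands of the branches that do not need beta-catenin, were both called higher in progenitor granulosa-like nuclei. WNT5B measured 78.5, 297, 126 and 23.4 CPM there (131 ± 118, n = 4), a log2 fold change of 3.91 ± 0.29 (adjusted p = 1.7e-14). The goats spread by more than 10-fold, with Du'an replicate 2 highest and Nubian replicate 2 lowest, but each was above the mean of its own other classes. Among the classes with a test the next mean was 17.7 CPM, in T or natural killer-like nuclei, and the untested fibroblast-like nuclei of Nubian replicate 1 were at 245 CPM. WNT5A reached 28.9, 48.4, 32.3 and 11.8 CPM in progenitor granulosa-like nuclei (log2 fold change 1.71) and was highest in smooth muscle-like nuclei, at 89.9, 37, 24 and 30.4 CPM (45.3 ± 30.2, log2 fold change 1.91 ± 0.29, adjusted p = 8.1e-07). It was also called higher in epithelial-like and lymphatic endothelial-like nuclei and lower in granulosa-like (log2 fold change -2.50), cycling, T or natural killer-like and macrophage-like nuclei.

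WNT4 was called higher in smooth muscle-like nuclei at 52.5, 7.82, 11.8 and 60.7 CPM (log2 fold change 3.61 ± 0.32, adjusted p = 2e-12). Du'an replicate 1 and Nubian replicate 2 were the high goats, 1 of each breed. It was called lower in granulosa-like (1.21, 0, 0.464 and 0.873 CPM), progenitor granulosa-like and cycling nuclei, with 29 WNT4 UMIs over all 14786 granulosa-like nuclei. Theca-like nuclei had a mean of 23.2 CPM that rested on 8 UMIs, most of the level coming from Du'an replicate 1 (90.3 CPM), and were not called. The remaining ligands averaged 13.7 CPM or less in every class with a test. WNT7B (13.7 CPM) and WNT2B (12.5 CPM) were highest in ciliated-like nuclei, and WNT2 in lymphatic endothelial-like nuclei (11 CPM). WNT6 was highest in smooth muscle-like nuclei (4.19 CPM), WNT9B in lymphatic endothelial-like nuclei (2.41 CPM), and WNT11 in cycling nuclei, where Nubian replicate 1 alone gave 21.9 CPM and the other goats 1.61 CPM or less.

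Among the Frizzled receptors, FZD4 and FZD6 were called higher in both endothelial classes. FZD4, known as a receptor for norrin as well as WNT in blood vessels, measured 134, 144, 77.1 and 187 CPM in blood endothelial-like nuclei (136 ± 45.1, log2 fold change 3.86 ± 0.21, adjusted p = 8.6e-20). All 4 goats were above the next class, lymphatic endothelial-like nuclei, where the values were 40.5, 60.3, 29 and 53.5 CPM. FZD4 was also called higher in pericyte-like nuclei (57.4, 33.1, 50.7 and 23.5 CPM) and smooth muscle-like nuclei (28.5, 27, 34.5 and 31.7 CPM), and lower in the granulosa-like, progenitor granulosa-like, cycling, epithelial-like and T or natural killer-like classes. At 1000 UMIs a nucleus, FZD4 was seen in 10.3 ± 3.72% of blood endothelial-like nuclei and 0.172% of T or natural killer-like nuclei (25.6% and 0.495% without thinning, median depths 1948.5 and 2235 UMIs).

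FZD6 was close to equal in the vessel classes, which were not tested against each other. Its level was 72.2, 40.6, 66.4 and 47.4 CPM in blood endothelial-like nuclei and 83.6, 52.5, 30.8 and 55.9 CPM in lymphatic endothelial-like nuclei, and the ranges overlapped. Both log2 fold changes were 3.74 (SE 0.23 and 0.25, adjusted p = 8.5e-18 and 6e-17). FZD6 was also higher in epithelial-like (log2 fold change 2.67) and ciliated-like nuclei (2.17), and lower in 6 classes including macrophage-like (-3.28) and smooth muscle-like nuclei (-1.44). In lymphatic endothelial-like nuclei 6 of 8 blood endothelial markers were above the mean of the other classes, with sums of 2308 to 2664 CPM for the list. FLT1 and VWF were not, at 6.56 and 47.3 CPM against 299 and 1399 CPM in blood endothelial-like nuclei. The part of the blood endothelial markers in the FZD4 and FZD6 results was not tested.

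FZD3, a receptor known for planar polarity and axon guidance, had the broadest pattern of the family. It was called higher in 6 classes and lower in 4. The values were 82.4 and 101 CPM in the 2 goats with ciliated-like nuclei (log2 fold change 1.91 ± 0.34, adjusted p = 1.5e-05). T or natural killer-like nuclei were at 141, 43.2, 88.4 and 76.8 CPM (log2 fold change 1.48 ± 0.22, adjusted p = 1.6e-07), a range that holds both ciliated-like values. The 4 classes called lower were blood endothelial-like (18 CPM), lymphatic endothelial-like (13 CPM), theca-like (10.7 CPM) and macrophage-like nuclei (9.13 CPM), so FZD3 and FZD6 were called in opposite directions in both endothelial classes.

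FZD5 was higher in cycling (14.4 CPM), progenitor granulosa-like (13.1 CPM) and granulosa-like nuclei (11.2 CPM), with log2 fold changes of 1.81, 1.55 and 1.43. All 10 granulosa markers were above the mean of the other classes in cycling and granulosa-like nuclei. In progenitor granulosa-like nuclei 4 of 10 were, as many as in pericyte-like and smooth muscle-like nuclei. FZD8 was highest in blood endothelial-like nuclei at 10.8, 5.02, 6.7 and 14.4 CPM (log2 fold change 3.86). FZD1 and FZD2 were called higher in smooth muscle-like nuclei at 3.79 and 2.04 CPM. The fibroblast-like nuclei of Nubian replicate 1 held more of both, at 45.9 and 9.29 CPM, and of FZD7, at 19.7 CPM against at most 1.31 CPM in a class with a test. That class had no replicate goat.

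The co-receptors LRP5 and LRP6 were highest in different classes, but both were called higher in granulosa-like and cycling nuclei. LRP5 was also called higher in blood endothelial-like and progenitor granulosa-like nuclei. LRP5 was highest in lymphatic endothelial-like nuclei at 121, 123, 128 and 109 CPM (120 ± 7.76, log2 fold change 1.36 ± 0.16, adjusted p = 1.3e-09), with little spread among goats. In T or natural killer-like nuclei it was at 2.93, 7.36, 10.3 and 7.88 CPM (log2 fold change -2.92 ± 0.25, adjusted p = 2.4e-13). LRP6 was at 317, 357, 332 and 304 CPM in smooth muscle-like nuclei (328 ± 22.7, log2 fold change 0.51 ± 0.14, adjusted p = 0.0044). That call was lost without Du'an replicate 2 (log2 fold change 0.41, adjusted p = 0.093). Pericyte-like nuclei, the next class for LRP6, averaged 286 CPM and were not called, with 1 goat at 423 CPM, above every smooth muscle-like goat. LRP6 was also lowest in T or natural killer-like nuclei, at 44, 49.1, 85.8 and 59.1 CPM (log2 fold change -2.11), and lower in macrophage-like nuclei (179 CPM, log2 fold change -0.43).

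The ROR and RYK receptors were called higher in granulosa-like, progenitor granulosa-like and cycling nuclei. ROR2, a receptor tyrosine kinase-like protein that binds WNT5A, was at 1458, 1550, 3563 and 2102 CPM in granulosa-like nuclei (2168 ± 973, log2 fold change 2.54 ± 0.20, adjusted p = 6.5e-14). Cycling nuclei were in the same range, at 1533, 1560, 3689 and 2002 CPM (2196 ± 1019, log2 fold change 2.47 ± 0.20). The cycling clusters also carried the granulosa markers, 10 of 10 of which were above the mean of the other classes. RYK was highest in granulosa-like nuclei at 400, 658, 1023 and 573 CPM (663 ± 262, log2 fold change 1.53 ± 0.17, adjusted p = 7.3e-10). Nubian replicate 1 was the highest goat for both genes, and it was also the goat with 5260 of its 7454 granulosa-like nuclei in the mural-like subtype.

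Outside the granulosa lineage, ROR2 in Nubian replicate 1 was the highest value of the 4 goats in 4 of the 5 classes called lower, and the remaining one, ciliated-like nuclei, lacked that goat. In T or natural killer-like nuclei it was 138, 190, 483 and 101 CPM, and in epithelial-like nuclei 123, 88.4, 799 and 82.3 CPM. The summed mural granulosa markers of T or natural killer-like nuclei were 437, 1491, 3200 and 813 CPM, with 0 of 7 above the mean of the other classes, and those of epithelial-like nuclei were 1041, 1035, 4311 and 576 CPM. Their part in the ROR2 levels of these classes was not tested. At 1000 UMIs a nucleus, 59.1 ± 12.4% of granulosa-like nuclei and 17.4 ± 12.1% of T or natural killer-like nuclei held a ROR2 UMI (78.1% and 33.2% without thinning).

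ROR1 had a wider range of classes. It was at 1573, 1597, 2202 and 2571 CPM in pericyte-like nuclei (1986 ± 487, log2 fold change 1.33 ± 0.20, adjusted p = 2.8e-06) and at 2358, 1995, 1668 and 1593 CPM in progenitor granulosa-like nuclei (1904 ± 349, log2 fold change 1.68 ± 0.19, adjusted p = 2.2e-09). These ranges overlapped, and those of smooth muscle-like (1845 ± 279 CPM) and granulosa-like nuclei (1775 ± 615 CPM) overlapped them too. All 4 classes were called higher, together with cycling nuclei. ROR1 was called lower in ciliated-like (log2 fold change -2.47), T or natural killer-like (-1.79), macrophage-like (-1.14), epithelial-like (-1.11) and lymphatic endothelial-like nuclei (-0.99).

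RSPO3, an R-spondin that amplifies WNT signals, was called higher in smooth muscle-like nuclei alone. It was at 333, 332, 358 and 325 CPM there (337 ± 14.3, log2 fold change 4.91 ± 0.18, adjusted p = 1.4e-24), and the next class with a test, pericyte-like nuclei, averaged 16.4 CPM, a ratio of 20.5. No goat of any other class exceeded 28.4 CPM, the value in fibroblast-like nuclei. At 1000 UMIs a nucleus, 20.7 ± 1.79% of smooth muscle-like and 0.951% of T or natural killer-like nuclei held an RSPO3 UMI (23.1% and 2.12% without thinning, median depths 1020 and 2235 UMIs). The thinned share left out 4404 of 9026 smooth muscle-like nuclei that had fewer UMIs. Stromal markers in these nuclei summed to between 4416 and 5621 CPM and fibroblast markers to between 1632 and 3521 CPM, and their part in the result was not tested.

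RSPO2 was called higher in the granulosa lineage, with log2 fold changes of 3.20 ± 0.40 in progenitor granulosa-like nuclei (adjusted p = 2.6e-08) and 2.03 ± 0.50 in cycling nuclei (adjusted p = 0.001), and with an adjusted p of 0.013 in granulosa-like nuclei. In progenitor granulosa-like nuclei it was at 50.7, 14.1, 1.39 and 60.7 CPM, so Nubian replicate 1 was more than 10-fold under the other Nubian goat. RSPO4 was rare, at 3.37 CPM in cycling nuclei and 1.58 CPM in granulosa-like nuclei, and called higher in both.

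LGR4, a receptor of the R-spondins, was at 156, 435, 670 and 220 CPM in granulosa-like nuclei (371 ± 233, log2 fold change 1.47 ± 0.21, adjusted p = 1.5e-07) and at 301, 250, 465 and 418 CPM in epithelial-like nuclei (358 ± 99.6, log2 fold change 1.46 ± 0.24). The ranges overlapped. Cycling (289 CPM), ciliated-like (247 CPM) and progenitor granulosa-like nuclei (190 CPM) were also called higher, and both endothelial and both immune classes lower.

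LGR5, known as a stem cell marker in the gut, was rarer and less even. It was called higher in epithelial-like nuclei at 219, 25.9, 37.2 and 6.9 CPM (log2 fold change 4.70 ± 0.86, adjusted p = 3.9e-05), a mean of 72.3 CPM that rested on 47 UMIs and on Du'an replicate 1, which had 25 epithelial-like nuclei. In progenitor granulosa-like nuclei it was at 8.67, 68.1, 13.5 and 1.21 CPM (log2 fold change 3.77 ± 0.60, adjusted p = 3.1e-06), highest in Du'an replicate 2. Macrophage-like nuclei were at 0, 11, 14.7 and 29.6 CPM (log2 fold change 3.51 ± 0.72, adjusted p = 8.4e-05). There, 2 nuclei with at least 10 LGR5 UMIs, 1 from each Nubian goat, held 47 LGR5 UMIs.

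The ubiquitin ligase ZNRF3 was the only member called higher in theca-like nuclei, the steroid-producing cells around the follicle. It was at 271, 246, 205 and 439 CPM there (290 ± 103, log2 fold change 1.22 ± 0.19, adjusted p = 3.6e-06), above the next class mean of 216 CPM in 3 of 4 goats. ZNRF3 was not particular to theca-like nuclei, being also called higher in epithelial-like, granulosa-like, progenitor granulosa-like and cycling nuclei. It was called lower in lymphatic endothelial-like nuclei and in both immune classes. Its homolog RNF43 was highest in epithelial-like nuclei at 110, 73.3, 55.7 and 111 CPM (87.4 ± 27.3, log2 fold change 6.47 ± 0.40, adjusted p = 5.4e-16). All 4 goats were above the next class, ciliated-like nuclei, at 34.8 and 18.4 CPM (log2 fold change 4.63). Du'an replicate 1 and Nubian replicate 1 had only 25 and 36 epithelial-like nuclei. RNF43 was seen in 7.73 ± 3.4% of epithelial-like and 0.168% of T or natural killer-like nuclei at 1000 UMIs (22.2% and 0.245% without thinning, median depths 3873 and 2235 UMIs). It was also called in smooth muscle-like nuclei (log2 fold change 2.26) at 5.67 CPM, under the arithmetic mean of the other classes, 10.2 CPM.

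DKK2, a secreted antagonist of LRP5 and LRP6, had the largest fold changes among the inhibitors. Pericyte-like nuclei, from the contractile cells that wrap small vessels, were at 970, 811, 584 and 458 CPM (706 ± 229, log2 fold change 7.61 ± 0.41, adjusted p = 5.4e-19). Blood endothelial-like nuclei were at 833, 180, 316 and 490 CPM (455 ± 282, log2 fold change 7.16 ± 0.39, adjusted p = 1.5e-19). The ranges overlapped, and no other class was called. Although it was kept out of the clustering genes, DKK2 was among the 10 leading genes of both clusters.

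The vessel classes were checked for each other's markers. In pericyte-like nuclei the blood endothelial markers summed to between 109 and 327 CPM with 1 of 8 above the mean of the other classes, against 4974 to 6038 CPM in blood endothelial-like nuclei. In blood endothelial-like nuclei the pericyte markers summed to between 21.6 and 40.9 CPM with 0 of 7 above the mean of the other classes, against 792 to 1221 CPM in pericyte-like nuclei. All 8 smooth muscle markers were above the mean of the other classes in pericyte-like nuclei (sums of 3107 to 5690 CPM), and their part in the result was not tested. DKK2 was also uneven between nuclei: 76 of the 91 nuclei with at least 10 DKK2 UMIs were blood endothelial-like (33, 14, 17 and 12 by goat), holding 1645 of 3185 DKK2 UMIs, and 11 were pericyte-like. At 1000 UMIs a nucleus, 37.4 ± 6.62% of pericyte-like nuclei (n = 3 goats), 13.4 ± 6.26% of blood endothelial-like nuclei and 0.477% of T or natural killer-like nuclei held a DKK2 UMI (39.2%, 15.2% and 0.728% without thinning).

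KREMEN1, the membrane receptor with which DKK proteins remove LRP6, was highest in epithelial-like nuclei. It was at 68.5, 209, 167 and 192 CPM there (159 ± 62.9, log2 fold change 3.92 ± 0.24, adjusted p = 2.1e-17) and at 79.2 and 110 CPM in ciliated-like nuclei (log2 fold change 3.25 ± 0.37, adjusted p = 1.3e-09). The lowest epithelial-like goat, Du'an replicate 1 with 25 such nuclei, lay under both ciliated-like values. KREMEN1 was lower in macrophage-like (log2 fold change -2.41) and T or natural killer-like nuclei (-1.11). It was thus called higher in other classes than DKK2.

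DKK3, a divergent member of the DKK family, was at 46.1, 53.2, 39.5 and 93.4 CPM in blood endothelial-like nuclei (58.1 ± 24.2, log2 fold change 3.46 ± 0.32, adjusted p = 4.9e-12) and at 23.8, 19.7, 45.4 and 21.1 CPM in progenitor granulosa-like nuclei (log2 fold change 2.44, adjusted p = 1.5e-07). The highest progenitor granulosa-like goat, Nubian replicate 1, was above the lowest blood endothelial-like value, that of the same goat. The fibroblast-like nuclei of Nubian replicate 1 were at 95.8 CPM.

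The SFRP family, decoy proteins that bind WNT ligands, was called higher in the lymphatic endothelium for 3 of its 4 tested members. SFRP1 was at 99.3, 211, 122 and 121 CPM in lymphatic endothelial-like nuclei (138 ± 49.7, log2 fold change 5.66 ± 0.37, adjusted p = 5e-17) and at 30.7, 30.6, 12.7 and 162 CPM in blood endothelial-like nuclei (log2 fold change 4.14). The blood endothelial-like value of Nubian replicate 2 exceeded its lymphatic endothelial-like one, whereas the other 3 goats had the reverse order. That goat had 182 blood endothelial-like nuclei. In this class 4 nuclei with at least 10 SFRP1 UMIs (3 of Nubian replicate 2 and 1 of Du'an replicate 1) held 84 UMIs. SFRP1 was seen in 10.5 ± 3.33% of lymphatic endothelial-like and 0.105% of granulosa-like nuclei at 1000 UMIs (19.6% and 0.392% without thinning).

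SFRP5 was called in lymphatic endothelial-like nuclei alone, at 13.1, 10.6, 4.98 and 14.6 CPM (log2 fold change 6.43), with a mean of 0.16 CPM over the other classes. With 100 UMIs over all nuclei, it could enter the test through this class, so the call is no separate support. SFRP4 was called there (8.43 CPM) and in smooth muscle-like nuclei (5.32 CPM), under the 48.2 CPM of the fibroblast-like nuclei. SFRP2 differed, being higher in smooth muscle-like (24.6 CPM), granulosa-like (16.1 CPM) and cycling nuclei (15.3 CPM). FRZB, a relative of the SFRP family, was highest in smooth muscle-like nuclei at 36.4, 44.1, 55.5 and 51 CPM (46.7 ± 8.35, log2 fold change 3.28 ± 0.26, adjusted p = 4.2e-14). WIF1 was called in cycling nuclei at 2.69 CPM.

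Of the feedback genes that WNT signaling itself induces, APCDD1 was highest in granulosa-like nuclei at 191, 51.6, 15 and 126 CPM (96.1 ± 78.7, log2 fold change 2.67 ± 0.28, adjusted p = 1.8e-10). Nubian replicate 1, with the most mural-like nuclei, was the lowest goat. Cycling (74 CPM) and blood endothelial-like nuclei (50.7, 46.1, 48.3 and 71.8 CPM, log2 fold change 2.00 ± 0.32, adjusted p = 2.9e-06) were also called higher, and epithelial-like nuclei lower (log2 fold change -2.30). AXIN2, a frequent read-out of the canonical branch, was highest in smooth muscle-like nuclei at 30.8, 19.2, 17.6 and 35.8 CPM (25.9 ± 8.85, log2 fold change 1.80 ± 0.25, adjusted p = 1.9e-07) and lower in macrophage-like nuclei (2.2 CPM, log2 fold change -2.18).

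The study compared subtypes of GCs, and here the granulosa lineage was divided into 7151 mural-like nuclei, 7635 non-mural granulosa-like nuclei and 7688 progenitor-like nuclei. Mural GCs line the follicle wall and make estradiol. Mural-like nuclei were all but absent from Du'an replicate 1 (2 nuclei), so this subtype has 3 goats, and 1485, 5260 and 404 nuclei came from the others. The non-mural nuclei had 1 of 5 cumulus markers up and are not called cumulus-like. Most progenitor-like nuclei (4827, in cluster 4) had 2 of 7 progenitor markers up against the other granulosa clusters, so their name is weakly based. Each subtype was compared with the mean of the other 2, and 32 members were tested among 13526 genes.

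In the subtypes, 17 members were called higher in at least 1 (36.7% of all genes) and 13 lower (31.6% of all genes). Progenitor-like nuclei had 9 members higher (15.8% of all genes) and 3 lower (11.8%), mural-like nuclei 4 higher (11.7%) and 6 lower (13.3%), and non-mural nuclei 5 higher (10.7%) and 7 lower (9.43%). The receptors ROR2, RYK and LGR4 and the ligand WNT11 were the members higher in mural-like nuclei. The ligands WNT5A, WNT5B and WNT10B, the receptors FZD1, FZD3 and LGR5, the inhibitors DKK3 and FRZB and the feedback gene AXIN2 were higher in progenitor-like nuclei. APCDD1, AXIN2, SFRP2, WNT6 and ZNRF3 were higher in non-mural nuclei.

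In mural-like nuclei ROR2 was at 3352, 4688 and 3306 CPM in Du'an replicate 2, Nubian replicate 1 and Nubian replicate 2 (log2 fold change 2.31 ± 0.39, adjusted p = 0.0033), against 466, 987, 747 and 539 CPM in the progenitor-like nuclei of the 4 goats (log2 fold change -1.58, adjusted p = 0.016). LGR4 was at 848, 835 and 422 CPM in mural-like nuclei (log2 fold change 1.90 ± 0.18, adjusted p = 0.00023), and between 151 and 244 CPM in every goat of the other subtypes. RYK was at 1060, 1230 and 930 CPM (log2 fold change 1.47 ± 0.20, adjusted p = 0.001), and between 326 and 584 CPM in the others. For each of the 3 receptors, the mural-like goats lay above all goats of the progenitor-like subtype. WNT11 was rare, at 3.41, 10.1 and 2.44 CPM (log2 fold change 2.05 ± 0.32, adjusted p = 0.0021), and its call was lost in a clustering run without the marker genes.

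APCDD1 marked the non-mural nuclei at 192, 74.4, 46.6 and 168 CPM (120 ± 70.4, log2 fold change 3.44 ± 0.35, adjusted p = 0.00049), and was at 9.52, 2.83 and 6.33 CPM in mural-like nuclei (log2 fold change -2.34, adjusted p = 0.006). The groups did not overlap. Nuclei with at least 10 APCDD1 UMIs were 33 in all, and 26 of them were in 1 non-mural cluster. AXIN2 followed the same order at a lower level, with 18.2, 8.07, 9.44 and 8.38 CPM in non-mural nuclei (log2 fold change 1.23, adjusted p = 0.007) and 1.2, 1.63 and 2.92 CPM in mural-like nuclei (log2 fold change -2.17, adjusted p = 0.0016). ZNRF3, also a feedback inhibitor, was at 223, 163, 138 and 187 CPM in non-mural nuclei (log2 fold change 0.50, adjusted p = 0.04) and at 75.1, 86.8 and 75.5 CPM in mural-like nuclei (log2 fold change -0.80, adjusted p = 0.0095). Both calls were lost without Du'an replicate 2, and the non-mural call also without Du'an replicate 1 and without Nubian replicate 2. SFRP2 (22.3, 16.4, 5.56 and 35.5 CPM, log2 fold change 2.00, adjusted p = 0.015) and WNT6 (2.94, 1.58, 1.11 and 2.51 CPM, log2 fold change 1.70, adjusted p = 0.0055) were the other members higher in non-mural nuclei.

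In progenitor-like nuclei the log2 fold change against the other GC subtypes was 4.20 ± 0.65 for WNT5B (adjusted p = 0.0017), 4.12 ± 0.55 for WNT5A (adjusted p = 0.00085), 4.27 ± 0.64 for LGR5 (adjusted p = 0.0015) and 3.16 ± 0.32 for DKK3 (adjusted p = 0.00017). WNT5B was at 3.01, 2.62 and 1.46 CPM in mural-like nuclei (log2 fold change -3.84, adjusted p = 0.014), all under the lowest progenitor-like goat (23.4 CPM). WNT5A was between 1 and 6.41 CPM in non-mural nuclei, also under every progenitor-like goat. WNT10B, left out of the test over all classes, was tested here and called at 1.85, 5.14, 2.78 and 0.701 CPM (log2 fold change 4.87 ± 0.70, adjusted p = 0.0012). It had 60 UMIs in progenitor-like nuclei against 5 in non-mural and 2 in mural-like nuclei. WNT10B could thus pass the filter through the subtype where it was high, so its call there is no separate support. FRZB was at 10.2, 4.71, 4.86 and 7.13 CPM (log2 fold change 1.93, adjusted p = 0.0085), FZD1 at 0.383, 5.56, 1.73 and 1.97 CPM (adjusted p = 0.0064), AXIN2 at 15, 9.42, 9.02 and 4.71 CPM (adjusted p = 0.023) and FZD3 at 79.2, 49.2, 33 and 80.4 CPM (adjusted p = 0.046).

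Of the 34 calls of a member in a subtype, 14 held under every alternative in which the gene was tested. WNT10B was not tested without Du'an replicate 1, nor WNT6 without clusters 1 and 4. The WNT10B call keeps the limit of the filter given above. The 14 calls were APCDD1 in non-mural and mural-like nuclei, LGR4 in mural-like and non-mural nuclei, AXIN2, ROR2 and RYK in mural-like nuclei, WNT6 in non-mural nuclei, and DKK3, FRZB, LGR5, WNT5A, WNT5B and WNT10B in progenitor-like nuclei. The 20 calls lost under at least 1 alternative included FZD3 in both subtypes, RYK in non-mural and progenitor-like nuclei, and LGR4 (without Du'an replicate 2) and ROR2 (without Du'an replicate 1: log2 fold change -1.32, adjusted p = 0.058) in progenitor-like nuclei. Also among them were the lower calls of RSPO2 and ROR1 in non-mural nuclei (adjusted p = 0.026 and 0.042), of DKK3 in both other subtypes, and of FZD1 and WNT11 in non-mural nuclei. The higher call of AXIN2 in progenitor-like nuclei was lost in 5 alternatives, and 2 of 4 goats were above the mean of their other subtypes. AXIN2 in non-mural nuclei was lost without Nubian replicate 1, and FZD1 in progenitor-like nuclei without Du'an replicate 2.

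The progenitor-like nuclei were made up of clusters 4 and 5, and several members differed between them. Against the median of all other clusters, cluster 5 (2861 nuclei) carried 6 of 7 progenitor markers, and cluster 4 (4827 nuclei, of which 64 were from Nubian replicate 1) carried 3 of 7. Against the other granulosa clusters alone, cluster 5 had 7 of 7 up (mean log2 difference 2.64). Cluster 4 had 2 of 7 up there, with a mean of -0.23, so its name rests on the contrast with the other cell types. WNT5B was at 182, 452, 131 and 62 CPM in cluster 5 and at 5.76, 20.2, 0 and 1.3 CPM in cluster 4. WNT5A was at 36.4, 72.2, 33.4 and 20.9 CPM in cluster 5 and at 23.6, 5.95, 7.72 and 6.62 CPM in cluster 4. LGR5 was at 19.8, 106, 13.8 and 1.57 CPM in cluster 5 and at 0.869, 1.19, 7.72 and 1 CPM in cluster 4, and its lowest cluster 5 goat, Nubian replicate 2, overlapped cluster 4.

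RSPO2 had the opposite order. It was at 84.5, 29.7, 0 and 92.2 CPM in cluster 4 and at 2.62, 5.35, 1.45 and 5.93 CPM in cluster 5, so that every goat but Nubian replicate 1 had more in cluster 4. Of the 65 nuclei with at least 10 WNT5B UMIs, 62 were in cluster 5 (27, 21, 8 and 6 by goat) and held 1276 of the 4219 WNT5B UMIs of all kept nuclei. Of the 48 nuclei with at least 10 RSPO2 UMIs, 42 were in cluster 4 (21, 1, 0 and 20 by goat) and held 814 of the 2724 RSPO2 UMIs. No test was run between clusters of 1 class.

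**Figure D3:**
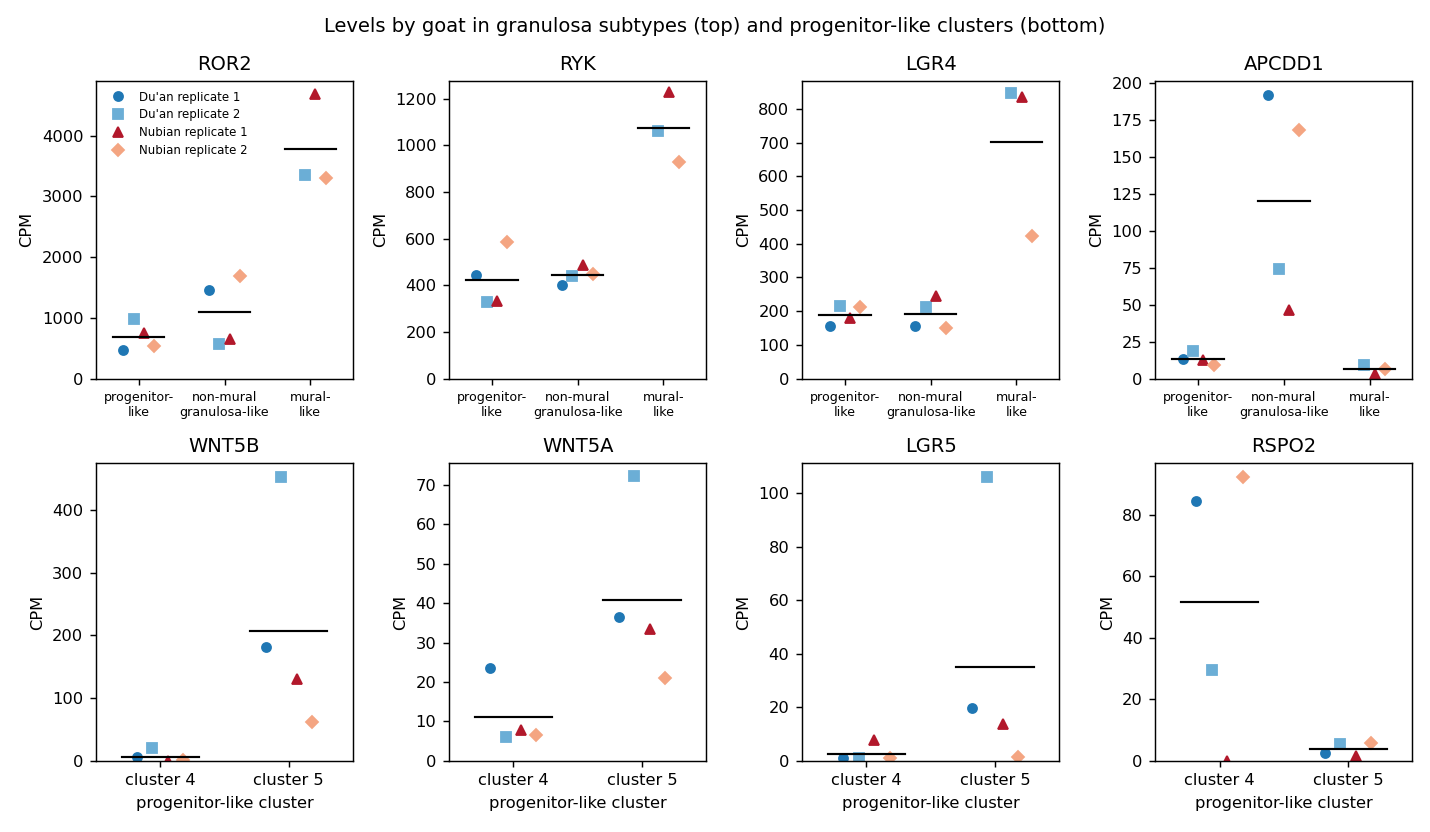
CPM by goat (points) with means (black bars); the upper row shows ROR2, RYK, LGR4 and APCDD1 in progenitor-like, non-mural and mural-like nuclei (mural-like without Du'an replicate 1), and the lower row WNT5B, WNT5A, LGR5 and RSPO2 in progenitor-like clusters 4 and 5. ROR2, RYK and LGR4 lie highest in mural-like nuclei, APCDD1 in non-mural nuclei, WNT5B in cluster 5 and RSPO2 in cluster 4.

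Beyond the members, 63 other WNT pathway genes from a list chosen by function were among the features, and 58 were tested in the same classes. The rest of the list was not among the features. At least 1 class was called higher for 57 of them (90.8% of all genes) and lower for 45 (54.2% of all genes), and over 696 tests 164 were called higher (18.2% of the tests of all genes) and 135 lower (10.7%). Progenitor granulosa-like nuclei had the most genes higher (26, against 19.2% of all genes, with 8 lower against 9.61%). Smooth muscle-like nuclei had 21 higher (16.7% of all genes) and 4 lower (3.85%), and granulosa-like nuclei 20 higher (23.9%) and 14 lower (12.7%). Macrophage-like nuclei had 6 higher (28.6% of all genes) and 27 lower (21.0%), and T or natural killer-like nuclei 9 higher (28.1%) and 23 lower (22.4%). By branch, both secretion genes, all 11 tested inhibitors and co-receptors, all 17 cytoplasmic genes, 11 of 12 nuclear factors, all 4 frequent targets and all 12 planar polarity and calcium genes were higher in at least 1 class, as were 90.8% of all genes.

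WLS, which carries WNT ligands to the cell surface, was at 182, 160, 186 and 192 CPM in lymphatic endothelial-like nuclei (log2 fold change 2.54 ± 0.19, adjusted p = 2.1e-15), the class with the highest WNT9A. The next class mean for WLS was nearly equal, at 178 CPM, and WLS was also called higher in smooth muscle-like nuclei. ADGRA2, a co-activator of WNT7 signaling in vessels, was highest in lymphatic endothelial-like nuclei at 371, 323, 278 and 245 CPM (log2 fold change 5.58 ± 0.17), as were TCF7L1 (363, 700, 479 and 445 CPM, log2 fold change 2.83) and NFATC1 (409, 206, 166 and 131 CPM, log2 fold change 4.73). In blood endothelial-like nuclei the nuclear factor LEF1 was at 426, 277, 257 and 428 CPM (log2 fold change 2.91 ± 0.22, adjusted p = 4.5e-15). In pericyte-like nuclei TRABD2B, a protease that inactivates WNT ligands, was at 454, 637, 488 and 188 CPM (log2 fold change 3.36) and DAAM2 at 253, 331, 209 and 282 CPM (log2 fold change 4.62). The highest other class mean also lay within the range of the goats for TCF7L1 (388 CPM), LEF1 (273 CPM) and TRABD2B (259 CPM).

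In smooth muscle-like nuclei, the class with the highest RSPO3 and AXIN2, the target TNFRSF19 (669, 333, 342 and 831 CPM, log2 fold change 2.67 ± 0.17, adjusted p = 6.3e-17) and the cytoplasmic inhibitor NKD1 (164, 65.4, 72.8 and 142 CPM, log2 fold change 2.80) were called higher. AXIN2, TNFRSF19, NKD1 and WNT4 all had Du'an replicate 1 and Nubian replicate 2 as the higher goats in this class, a pattern noted after the values were seen. WNT5A, FRZB, RSPO3 and FZD4, also called higher in this class, had other orders of the goats. The share of all genes with that order was not counted, so nothing is read from it. In epithelial-like nuclei CELSR1, a planar polarity cadherin, was at 219, 349, 242 and 342 CPM (log2 fold change 4.49) and CCND1 at 164, 73.3, 65 and 34 CPM (log2 fold change 4.12). SP5, a direct target, was at 212 and 161 CPM in the ciliated-like nuclei of 2 goats (log2 fold change 8.98 ± 0.38, adjusted p = 2.1e-20), where BCL9 (215 and 310 CPM) and APC (418 and 287 CPM) were also called. GPC6, of the glypican family of membrane proteoglycans, was at 2314, 2673, 2846 and 5491 CPM in progenitor granulosa-like nuclei (log2 fold change 2.28), and CTNNBIP1, an inhibitor of beta-catenin, was at 103, 37, 44 and 65 CPM in macrophage-like nuclei (log2 fold change 2.16). The highest other class mean lay within the range of the goats for TNFRSF19 (349 CPM), NKD1 (86.4 CPM), CELSR1 (255 CPM) and GPC6 (2951 CPM).

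The fibroblast-like nuclei of Nubian replicate 1 are described without a test, as no other goat had 20 such nuclei. Among the members above 20 CPM there were ROR1 (1736 CPM), ROR2 (1051 CPM), LRP6 (357 CPM), RYK (343 CPM), WNT5B (245 CPM), LGR4 (170 CPM), SFRP1 (109 CPM) and DKK3 (95.8 CPM). The levels of LRP6, WNT5B, DKK3, FZD1, FZD2, FZD7, SFRP4, WNT2 (27.3 CPM) and WNT5A (50.5 CPM) exceeded the mean of every class with a test.

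The study's question was how polytocous and monotocous goats differ, and the Nubian goats were compared with the Du'an goats in each class that had 20 nuclei in all 4 goats and in the sum of all kept nuclei. With edgeR no member and no gene was called in any class (0% of all genes). At an unadjusted p under 0.05, there were 5 of 192 member tests over 11 classes (2.6%) and 4164 of 99564 gene tests (4.18%). DESeq2 made 340 gene calls over the classes and none of a member, with 9 member tests at an unadjusted p under 0.05. The lowest adjusted p of a member was 0.45, for LRP6 in T or natural killer-like nuclei. With 2 goats against 2, an exact permutation test cannot reach a p under 0.05, so the goats' values are given as they stand.

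Over the 11 classes, both Nubian goats lay above both Du'an goats in 16 member tests and below them in 20. The split by class was uneven, with 7 above and 0 below of 12 tested members in macrophage-like nuclei (20.5% and 13.2% of all genes). It was 0 and 4 of 28 in progenitor granulosa-like nuclei (15.8% and 8.57%), 1 and 2 of 30 in granulosa-like nuclei (12.3% and 16.6%), 2 and 4 of 28 in smooth muscle-like nuclei (13.1% and 17.5%), 2 and 2 of 8 in pericyte-like nuclei (15.2% and 18.3%) and 1 and 3 of 21 in blood endothelial-like nuclei (14.5% and 13.5%). Cycling nuclei had 1 and 3 of 18 (13.0% and 17.6%), epithelial-like nuclei 1 and 1 of 12 (14.0% and 11.7%), lymphatic endothelial-like nuclei 0 and 1 of 18 (15.6% and 16.1%), T or natural killer-like nuclei 1 and 0 of 10 (24.8% and 22.6%) and theca-like nuclei 0 and 0 of 7 (15.0% and 11.4%). In the sum of all kept nuclei it was 2 and 6 of 45 (11.9% and 10.4%).

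ROR2 in granulosa-like nuclei was at 1458 and 1550 CPM in the Du'an goats and 3563 and 2102 CPM in the Nubian goats, a log2 fold change (Nubian minus Du'an) of 0.95 ± 0.35 (edgeR, unadjusted p = 0.046, adjusted p = 1). The mural-like subtype, in which ROR2 was highest, made up 5260 of 7454 granulosa-like nuclei of Nubian replicate 1, 404 of 1645 of Nubian replicate 2, 1485 of 4464 of Du'an replicate 2 and 2 of 1223 of Du'an replicate 1, and its part in the difference was not tested. Within mural-like nuclei the goats were at 3352 CPM (Du'an replicate 2), 4688 CPM and 3306 CPM, and within non-mural nuclei at 1459, 569, 651 and 1688 CPM, and the breeds overlapped in both. ROR2 in cycling nuclei was at 1533 and 1560 against 3689 and 2002 CPM (log2 fold change 0.96 ± 0.42, edgeR adjusted p = 0.99).

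In macrophage-like nuclei ROR2 was at 131 and 116 CPM in the Du'an goats and 821 and 214 CPM in the Nubian goats (log2 fold change 2.01 ± 0.60, edgeR unadjusted p = 0.011, adjusted p = 0.75). RYK was at 49.3 and 71.6 against 241 and 105 CPM (log2 fold change 1.41 ± 0.47, unadjusted p = 0.018 by edgeR, adjusted p = 0.8), and LGR4 at 14.1 and 41.1 against 121 and 43.4 CPM (log2 fold change 1.35 ± 0.63, edgeR adjusted p = 0.87). In all 3 genes Nubian replicate 1 stood far above the other goats. These are the 3 receptors that were higher in mural-like nuclei, and the summed mural granulosa markers of the macrophage-like nuclei were 225, 877, 4205 and 1007 CPM, with 0 of 7 above the mean of the other classes. Their part in the result was not tested. ZNRF3 (21.1 and 18.7 against 36.6 and 34.7 CPM), LRP5 (30.5 and 40.7 against 58.6 and 41.9 CPM) and LGR5 (0 and 11 against 14.7 and 29.6 CPM) did not overlap either, with edgeR adjusted p of 0.88, 0.96 and 0.89. For LGR5, 1 macrophage-like nucleus in each Nubian goat had at least 10 UMIs, and these 2 nuclei held 47 UMIs. In macrophage-like nuclei 5 of 6 B cell markers were also above the mean of the other classes (BANK1 at 495 CPM). The same held in T or natural killer-like nuclei (BANK1 at 362 CPM). The theca marker STAR was at 82.3 CPM in macrophage-like and 21.9 CPM in theca-like nuclei. The part of these markers in the breed values was not tested.

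In smooth muscle-like nuclei WNT5A was at 89.9 and 37 CPM in the Du'an goats and 24 and 30.4 CPM in the Nubian goats (log2 fold change -1.23 ± 0.41, edgeR unadjusted p = 0.024, adjusted p = 1). Du'an replicate 1 was far above the rest. FRZB was at 36.4 and 44.1 against 55.5 and 51 CPM and FZD4 at 28.5 and 27 against 34.5 and 31.7 CPM, with an edgeR adjusted p of 1 for both. In pericyte-like nuclei DKK2 was at 970 and 811 against 584 and 458 CPM (log2 fold change -0.74 ± 0.35, edgeR unadjusted p = 0.061, adjusted p = 0.98). ROR1 was at 1573 and 1597 against 2202 and 2571 CPM there, LRP6 at 230 and 190 against 302 and 423 CPM and ZNRF3 at 138 and 149 against 113 and 47 CPM, with adjusted p of 0.98 or 1 by edgeR.

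The other members that did not overlap at 20 CPM or more in a breed had edgeR adjusted p of 0.45 to 1. In progenitor granulosa-like nuclei ROR1 was at 2358 and 1995 against 1668 and 1593 CPM. In blood endothelial-like nuclei ZNRF3 was at 131 and 90.3 against 71.1 and 83.3 CPM and FZD3 at 30 and 16.6 against 15.4 and 10.1 CPM. LRP5 in cycling nuclei was at 109 and 77.2 against 51.8 and 73.4 CPM, and LRP6 in T or natural killer-like nuclei at 44 and 49.1 against 85.8 and 59.1 CPM. In epithelial-like nuclei LGR4 was at 301 and 250 against 465 and 418 CPM and WNT9A at 164 and 56.1 against 37.2 and 40.9 CPM. Replicate 1 of the breeds had 25 (Du'an) and 36 (Nubian) such nuclei. Over all kept nuclei WNT5B was at 48.5 and 24.5 against 18.8 and 16.7 CPM (log2 fold change -1.08, edgeR unadjusted p = 0.053, adjusted p = 1), a sum in which the classes weigh by their numbers of nuclei in each goat.

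**Figure D4:**
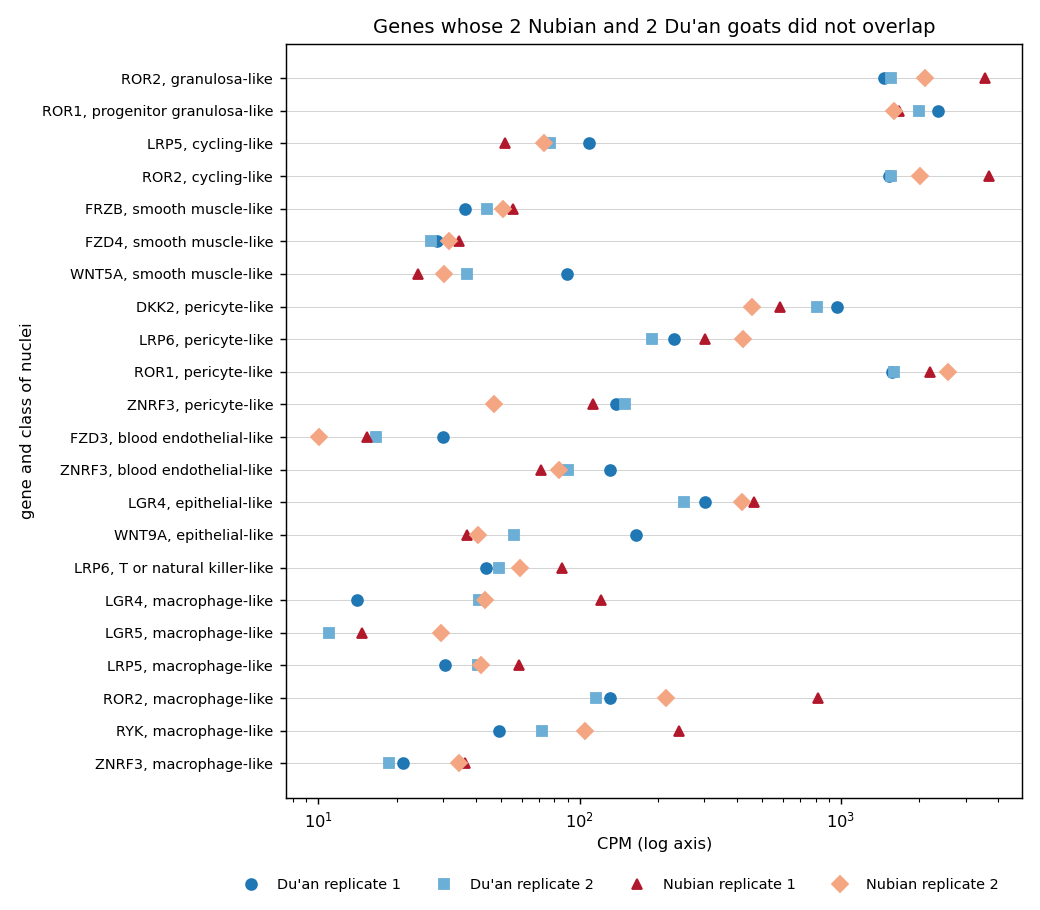
CPM (log axis) of 22 gene and class pairs in which both Nubian goats lay on 1 side of both Du'an goats and 1 breed had at least 20 CPM; each point is a goat, and the value 0 of LGR5 in macrophage-like nuclei of Du'an replicate 1 cannot be drawn. In macrophage-like nuclei ROR2, RYK and LGR4 of Nubian replicate 1 (821, 241 and 121 CPM) lie far to the right of the other goats.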

How the data were processed

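The authors deposited 1 table of raw UMI counts (genes by nuclei) per goat, made from Chromium 3' v3 libraries with Cell Ranger (version 5.0.0 per the labels). Their marker tables hold their own comparisons and were not used. The members and lists were chosen with earlier results of these data known.

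Nuclei within the mean ± 2 SD of UMIs and genes of their library and at most 20% mitochondrial UMIs were kept, after the methods of the study, and Scrublet was applied. They were clustered with scanpy 1.11.5 (2000 variable genes without the members and the pathway list, 30 components, Leiden resolution 0.8). A cluster was named when at least 3 fixed markers were up (a level of 10 CPM, and 1 log2 unit above the other clusters' median) and the list averaged 0.5 log2 units or more, limits chosen with the values in view. Rebuilt names can differ from those of the study.

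Counts were summed per goat and class (at least 20 nuclei), filtered with filterByExpr, scaled by TMM and tested with edgeR 4.0.16 (quasi-likelihood, Benjamini-Hochberg over all genes; goat as a block, except between breeds). DESeq2 1.42.0, other scaling, filters and clusterings, and goats left out were alternatives. Shares of nuclei with a UMI, which hold counting error and free RNA, were thinned to 1000 UMIs and not tested. Values per goat are given for members called higher with at least 50 CPM, in the class where they were highest, for subtype calls, for members whose breeds did not overlap at 20 CPM or more, and for up to 3 called pathway genes per branch. Others were named after their values were seen. The fits were tested on simulated data.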

Additional observations from a re-analysis of the deposited data

Results flagged for a closer look

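LGR5 in epithelial-like nuclei had 1 goat apart from the rest. Du'an replicate 1 was at 219 CPM, and the other goats were at 25.9, 37.2 and 6.9 CPM. Its gap to the nearest goat was 0.857 of the whole range, above Dixon's 95% critical value for 4 samples. That goat had 25 epithelial-like nuclei. It was 1 of 19 members tested in this way, and chance flags about 1 in 20 groups.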

How the results depend on the processing

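Of the fold changes of named members in classes, 258 kept their direction and call in the alternatives tried and 1 (LRP6 without Du'an replicate 2) was no longer called, and the 208 of the named pathway genes all kept them. In the subtypes, where WNT10B and WNT6 lacked a test in 1 alternative each, 380 kept them and 60 did not pass the threshold, and none reversed. Of the 380, 34 come from asking for at least 50 nuclei in a sum. That setting left the subtype sums unchanged, so those 34 could not differ. Over all classes, lower calls of a member were 68, and 43 to 57 with a goat left out (43 without Du'an replicate 2 and 45 without Nubian replicate 2). Higher calls of a member were 107, and 91 to 117 over all alternatives. In the subtypes lower calls were 16, and 4 to 14 with a goat left out (10 without Du'an replicate 1 and 4 without Du'an replicate 2). Lower calls of a pathway gene were 135, and 85 to 115 with a goat left out (85 without Nubian replicate 2). Fewer goats were fitted in these settings. Without clusters 1 and 4, chosen after seeing the data, there were 106 higher and 69 lower calls. With the markers left out of the variable genes no cycling class was formed.

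Between breeds 0 members and 0 genes were called. The counts of calls that follow are summed over the 11 classes, so a gene called in several classes counts more than once. With no filter on low counts 7 members and 1740 genes were called (WNT11 and APCDD1 in cycling, ROR2 in macrophage-like, LGR5, WNT5B and DKK2 in progenitor granulosa-like and WNT5A in smooth muscle-like nuclei). With a goat left out it was 0 to 2 members and 47 to 569 genes, the 2 being ROR2 in epithelial-like (log2 fold change 2.98, adjusted p = 0.00019) and macrophage-like nuclei (2.67, adjusted p = 0.029) without Nubian replicate 2, where Nubian replicate 1 alone stands for its breed and is assumed to vary like the Du'an goats. DESeq2 called 340 genes and scaling by library totals 143, with 0 members each. The cause of these differences was not tested. The labels do not say that a replicate number pairs the goats. Correlations of the goats' deviations by number ran from -0.233 to 0.279 over the classes, which cannot decide whether goats were handled in pairs. With the replicate block 0 members and 105 genes were called, and with crossed numbers, added after seeing the data, 0 members and 231 genes. The 14 members not tested over the classes had 187 UMIs or fewer.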
